A study of Mus musculus with 8 samples.

Results

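The lysyl oxidase family of the mouse comprises 5 genes, Lox, Loxl1, Loxl2, Loxl3 and Loxl4, which were taken by gene symbol from the 35896 genes of an aortic RNA-sequencing table. All 5 members passed the filter on low counts, as did 17182 genes in all. The table holds 8 libraries of whole aortic tissue of male C57BL6 mice, and each library holds tissue pooled from 2 mice (16 mice in all). The libraries form groups of 2. The AngII group received angiotensin II by osmotic minipump at 2.8 mg/kg/d for 2 weeks, from 11 weeks of age, and was sacrificed at the end of the infusion. The AngII+2W and AngII+3W groups received the same infusion and were sacrificed 2 and 3 weeks after its end. The CTRL group consisted of untreated littermates of matched age. The paper describes controls for each time point, and the labels do not give the time of sacrifice of the CTRL mice sequenced. All values come from tissue rather than sorted cells, so that fewer cells of a type and less RNA per cell cannot be told apart. P-values measure the spread between these pooled libraries.

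Lysyl oxidases are secreted, copper-dependent amine oxidases. They convert lysine residues of collagen and elastin into aldehydes, which then condense with neighbouring chains into covalent cross-links, and thereby give the arterial wall its tensile strength and its recoil. Lox is the founding member and is released from a proenzyme by Bmp1, Loxl1 is the member most closely tied to elastic fibres, and Loxl2, Loxl3 and Loxl4 carry scavenger receptor cysteine-rich domains in place of the propeptide, with Loxl2 best known for its action on basement membrane and fibrillar collagens.

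The members lie on 5 different chromosomes. On GRCm38, Loxl1 (ENSMUSG00000032334) spans chr9:58287738-58313186 on the reverse strand, Loxl2 (ENSMUSG00000034205) chr14:69609068-69695834 on the forward strand, Loxl3 (ENSMUSG00000000693) chr6:83034173-83052562 on the forward strand and Loxl4 (ENSMUSG00000025185) chr19:42593982-42612813 on the reverse strand. The longest open reading frames code for 411 residues in Lox, 607 in Loxl1, 776 in Loxl2, 754 in Loxl3 and 758 in Loxl4. Each holds 1 copper-binding histidine cluster, which lies in the catalytic domain near the carboxyl end. The coding stretch of 36 bases around this cluster is shown because it is the part the enzymes share, and because it shows which members are closest in sequence. Capitals mark the 24 bases of the cluster itself.
Loxl1: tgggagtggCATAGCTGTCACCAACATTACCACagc
Loxl2: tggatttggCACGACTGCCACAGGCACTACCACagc
Loxl3: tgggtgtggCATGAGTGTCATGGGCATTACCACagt
Loxl4: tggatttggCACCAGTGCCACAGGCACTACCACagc
These stretches are exonic and coding, and in every member an intron divides them after 23 bases. In Loxl2 the parts are the end of exon 10 (chr14:69682316-69682338) and the start of exon 11 (chr14:69689028-69689040) of 14 exons, and in Loxl3 they are the end of exon 10 (chr6:83049995-83050017) and the start of exon 11 (chr6:83050116-83050128) of 14. In Loxl4 they are the end of exon 11 (chr19:42599877-42599899) and the start of exon 12 (chr19:42598804-42598816) of 15, and in Loxl1 the end of exon 3 (chr9:58294359-58294381) and the start of exon 4 (chr9:58293717-58293729) of 7, as in Lox. Over the 36 bases, Lox and Loxl1 were identical at 35 and Loxl2 and Loxl4 at 34, whereas every other pair was identical at 24 to 27.

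Lox (ENSMUSG00000024529), of which no sequence is shown, spans chr18:52516067-52529867 on the reverse strand of GRCm38. How far reads can be told apart differed between members. Of the distinct 31-base words of each gene's annotated transcripts, 0.0842% in Lox, 0.0918% in Loxl1 and 0% in Loxl4 occurred in another gene. In Loxl3 this share was 9.84%, all of it with Htra2, a protein-coding gene that overlaps Loxl3 on the opposite strand. In Loxl2 it was 46.4%, and 2318 of its 2484 shared words occurred in the unprocessed pseudogene Gm21451 (chr14:69390854-69480287, forward strand), which matches 44.2% of the longest Loxl2 transcript at 100% identity. Loxl2 values are therefore uncertain to the extent that reads were split with this copy, to which the authors' estimate gave 4.7 to 23.7% of the count of Loxl2. Lox and Loxl2 also have antisense neighbours, and whether strand was used in counting is not given in the sources used here.

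Library totals ranged from 18130441 to 21498200 counts. In AngII+3W replicate 1, skeletal muscle markers summed to 2360 CPM (counts per 1000000, on library sizes normalized by TMM), against 5.32 to 73.8 CPM in the other libraries, while cardiac muscle markers reached 4660 CPM there, against 4.35 to 3960 CPM elsewhere. The mitochondrial share was also highest in this library, at 18.3% against 8.15 to 13.5%, so results on AngII+3W are given by library, or with and without it. Smooth muscle, endothelial and fibroblast markers were detected in all 8 libraries. The 5 smooth muscle markers together ranged from 6930 to 8900 CPM in CTRL and from 1600 to 2040 CPM in AngII, the 5 fibroblast markers from 464 to 781 and from 1360 to 1760 CPM, and the 5 macrophage markers from 214 to 290 and from 572 to 960 CPM. The part of these shifts in tissue makeup, cardiac transcripts included, in the results on lysyl oxidases was not tested.

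At the end of the infusion, Loxl2 transcripts had risen 2.84-fold over CTRL. This was the 1 member of 5 that passed the test, and Lox, Loxl1, Loxl3 and Loxl4 had higher values in both AngII libraries than in either CTRL library without passing it. Genes were tested with edgeR's quasi-likelihood F test, and p-values were adjusted over all 17182 genes (FDR, called below 0.05), of which 2.9% were called higher in AngII than in CTRL. Values of AngII that lie wholly above those of CTRL were common, since 24.4% of all genes tested showed them.

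Loxl2 measured 50.9 and 43.8 CPM in the CTRL libraries, 107.9 and 160.5 CPM in the AngII libraries, 64.0 and 53.2 CPM at AngII+2W, and 28.6 and 41.9 CPM at AngII+3W. Both AngII libraries lay above the 6 others, and both AngII+3W libraries lay below the 6 others. The log2 fold change of AngII over CTRL was 1.503 ± 0.25 (SE, 95% interval 0.93 to 2.08, FDR = 0.0198), which placed Loxl2 at the 96.9th percentile of fold changes. The call depended on single libraries. It was lost without AngII replicate 2 (1.19), without CTRL replicate 1 (1.61), without CTRL replicate 2 (1.39), and without AngII+2W replicate 1 or 2. Each of these fits leaves 1 library in a group. Without AngII replicate 2 or either CTRL library, fewer of all genes were called too, so that loss is not particular to Loxl2. In every fit the estimate stayed at 1.19 or above. With the counts of Gm21451 added to those of Loxl2, an alternative chosen after seeing the data, the log2 fold change was 1.49 (FDR = 0.0191).

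Lox measured 145.9 and 85.3 CPM in CTRL, 225.3 and 287.1 CPM in the AngII libraries, 158.1 and 94.7 CPM at AngII+2W, and 35.4 and 85.8 CPM at AngII+3W. The AngII libraries were the highest of the 8, and the CTRL and AngII+2W libraries overlapped. With a mean of 256.2 ± 43.7 CPM in AngII and 115.6 ± 42.8 CPM in CTRL (SD, n = 2), the log2 fold change was 1.15 ± 0.45 (FDR = 0.201). The 95% interval was 0.11 to 2.18, and replicates differed 1.71-fold in CTRL and 1.27-fold in AngII. In a quasi-likelihood fit of only the AngII and CTRL libraries, Lox measured 1.16 ± 0.27 and passed (FDR = 0.0479). That fit called 1149 of all genes in either direction, and was the 1 of 12 alternatives that called Lox.

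Loxl1, the partner of elastin, measured 134.9 and 106.0 CPM in CTRL, 136.1 and 201.2 CPM in the AngII libraries, 100.6 and 79.0 CPM at AngII+2W, and 34.9 and 90.6 CPM at AngII+3W. One AngII library was level with the higher CTRL library, and the log2 fold change of 0.49 ± 0.41 did not pass the test (FDR = 0.576). In AngII+2W and AngII+3W both libraries lay below both CTRL libraries.

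Loxl3 measured 37.7 and 30.3 CPM in CTRL, 40.98 and 54.4 CPM in the AngII libraries, 35.1 and 25.1 CPM at AngII+2W, and 14.03 and 30.95 CPM at AngII+3W, with a log2 fold change of 0.49 ± 0.35 in AngII over CTRL (FDR = 0.499). Loxl4 was the scarcest member, at 5.21 and 2.92 CPM in CTRL, 5.45 and 7.16 CPM in the AngII libraries, 2.94 and 3.22 CPM at AngII+2W, and 2.96 and 6.45 CPM at AngII+3W. Its 55 to 151 counts per library give a counting error of 8.14 to 13.5%, against at most 6.19% for the other members, and its log2 fold change in AngII of 0.64 ± 0.41 did not pass the test (FDR = 0.446).

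**Figure D1:**
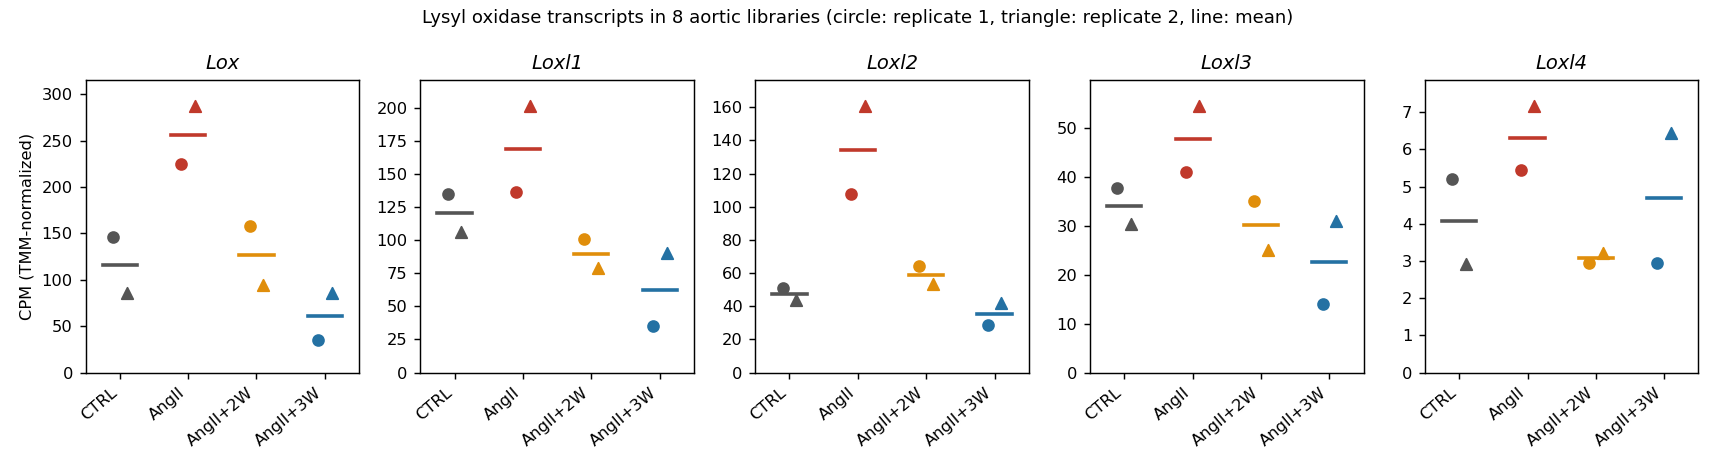
Normalized level (CPM) of each lysyl oxidase gene in the 8 libraries by group, with circles for replicate 1, triangles for replicate 2 and lines for group means; each panel has its own axis from 0. All 5 genes had both AngII points above both CTRL points, and the lowest point of Lox, Loxl1, Loxl2 and Loxl3 was AngII+3W replicate 1.

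In the weeks after the infusion, no member differed from CTRL by the test. In AngII+2W, 0 of 5 members passed, as did 0.0% of all genes tested in the higher direction, and 0 members had an unadjusted p below 0.05 or were called by DESeq2, the likelihood ratio test or limma-voom. The log2 fold change over CTRL was 0.13 ± 0.44 for Lox, -0.42 ± 0.41 for Loxl1, 0.31 ± 0.24 for Loxl2, -0.18 ± 0.35 for Loxl3 and -0.40 ± 0.42 for Loxl4 (FDR from 0.725 to 0.95). Loxl2 alone had both AngII+2W libraries above both CTRL libraries, which held for 21.7% of all genes, and Loxl1 alone had both below, which held for 22.2%. The 95% intervals were wide, from -0.90 to 1.15 for Lox and from -1.37 to 0.52 for Loxl1, and a 2-fold rise of Lox or a 2-fold fall of Loxl1 lay within them.

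In AngII+3W, 0 of 5 members passed the test against CTRL, by edgeR, DESeq2, the likelihood ratio test or limma-voom, and 0 had an unadjusted p below 0.05, where 0.268% of all genes tested were called lower. Loxl1 and Loxl2 (2 of 5 members) had both libraries below both CTRL libraries, which held for 18.3% of all genes. For Loxl2 this did not hold with the counts of Gm21451 added, at 54.2 and 48.1 CPM in CTRL and 35.4 and 50.7 CPM in AngII+3W, and its log2 fold change was then -0.25. The log2 fold change was -0.93 ± 0.45 for Lox (FDR = 0.447), -0.94 ± 0.41 for Loxl1 (FDR = 0.407), -0.43 ± 0.25 for Loxl2 (FDR = 0.524), -0.60 ± 0.35 for Loxl3 (FDR = 0.534) and 0.21 ± 0.41 for Loxl4 (FDR = 0.875). These values rested largely on AngII+3W replicate 1, the library with skeletal muscle transcripts. Without it they were -0.43 for Lox, -0.41 for Loxl1, -0.18 for Loxl2, -0.14 for Loxl3 and 0.66 for Loxl4, and none passed. Without AngII+3W replicate 2 they were -1.76, -1.84, -0.78, -1.33 and -0.51, and Loxl1 passed (FDR = 0.0263). AngII+3W shares its CTRL libraries with the comparison of AngII, so the pair of comparisons is not independent.

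The test between time points bears on the return after the infusion. Mice of AngII+2W and AngII+3W were also older at sacrifice than those of AngII, and age and time since the infusion cannot be told apart here. In AngII+3W against AngII, Loxl2 fell by 1.93 ± 0.25 on the log2 scale (95% interval -2.51 to -1.35, FDR = 0.0223), from a mean of 134.2 ± 37.2 to 35.2 ± 9.37 CPM (SD, n = 2), and was the 1 member called by edgeR and by limma-voom, where 1.32% of all genes were called lower by edgeR. DESeq2 called 4 members (all but Loxl4) and the likelihood ratio test 3 (Lox, Loxl1 and Loxl2). Over all genes tested, in either direction, edgeR called 276, limma-voom 287, DESeq2 948 and the likelihood ratio test 1068. The copy Gm21451 held 4.7 and 8.03% of the count of Loxl2 in AngII, and 23.7 and 21.2% in AngII+3W. With its counts added to those of Loxl2, the log2 difference of Loxl2 was -1.735. Lox had the larger estimate, -2.08 ± 0.46, with a wider spread between replicates, and did not pass (FDR = 0.0727). Loxl1 measured -1.43 ± 0.41 (FDR = 0.137), Loxl3 -1.09 ± 0.35 (FDR = 0.172) and Loxl4 -0.42 ± 0.41 (FDR = 0.619). Without AngII+3W replicate 1 these were -1.57 for Lox, -0.89 for Loxl1, -0.62 for Loxl3 and 0.04 for Loxl4, and none of the 5 members was called. In 4 of 5 members both AngII+3W libraries lay below both AngII libraries, the exception being Loxl4, and this held for 24.2% of all genes. The call of Loxl2 was lost without AngII+3W replicate 1 (-1.68), without AngII replicate 2 (-1.62) and without AngII+2W replicate 1 or 2. It was also lost in a fit of the AngII and AngII+3W libraries alone (-1.93, FDR = 0.129), in which 0 of all genes were called. Over the fits with 1 library left out, the difference ranged from -2.904 to -1.571 for Lox and from -2.321 to -0.889 for Loxl1. It ranged from -2.281 to -1.621 for Loxl2 and from -1.815 to -0.617 for Loxl3.

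Already 2 weeks after the infusion, all 5 members had both libraries below both AngII libraries, an arrangement that 27.5% of all genes showed. The log2 difference of AngII+2W from AngII was -1.20 ± 0.24 for Loxl2 (FDR = 0.0847), -1.02 ± 0.44 for Lox (FDR = 0.337), -0.91 ± 0.41 for Loxl1 (FDR = 0.352), -0.67 ± 0.35 for Loxl3 (FDR = 0.433) and -1.03 ± 0.42 for Loxl4 (FDR = 0.293). None of the 5 passed edgeR's quasi-likelihood test, where 0.14% of all genes were called lower, and 2 members (Loxl2 and Loxl4) had an unadjusted p below 0.05, as did 15.0% of all genes. Loxl2 was called by DESeq2 and by the likelihood ratio test, and by limma-voom no member was. Over all genes tested, in either direction, DESeq2 called 685, the likelihood ratio test 766 and limma-voom 15. Between AngII+3W and AngII+2W, 0 members and 0.0% of all genes were called lower by edgeR. DESeq2, the likelihood ratio test and limma-voom also called 0 members. In this comparison 2 members had an unadjusted p below 0.05, Lox at -1.06 ± 0.45 (FDR = 0.558) and Loxl2 at -0.73 ± 0.25 (FDR = 0.442), while 8.83% of all genes did. These members also had both libraries lower, as 19.7% of all genes did. With AngII+3W replicate 1 left out the differences were -0.56 for Lox and -0.49 for Loxl2, and neither had an unadjusted p below 0.05.

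**Figure D2:**
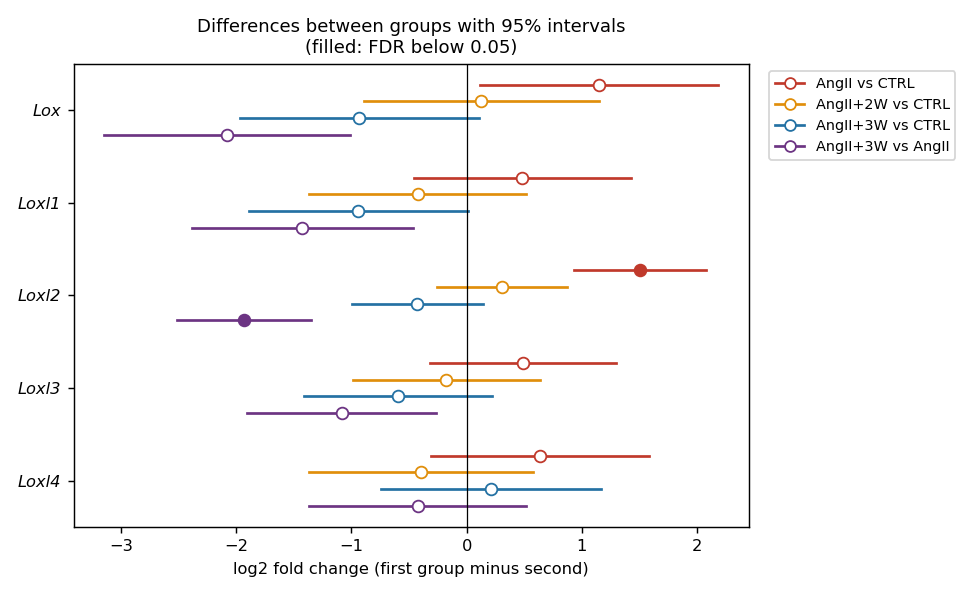
Log2 fold changes of the 5 genes with 95% intervals of edgeR's model in 4 comparisons, the first group minus the second, with filled symbols for FDR below 0.05. Of the 20 intervals, 2 belong to called values, both of Loxl2, at 1.503 in AngII against CTRL and at -1.93 in AngII+3W against AngII.

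Levels of different members can be compared only per length. Divided by the median length of the annotated transcripts, the level of Loxl1 was highest in CTRL with 36.5 ± 6.18 CPM per kilobase, followed by Lox with 25.1 ± 9.3, Loxl2 with 11.3 ± 1.19, Loxl3 with 9.25 ± 1.41 and Loxl4 with 1.66 ± 0.664 (SD, n = 2). Loxl2 and Loxl3 differed by less than 2 of these SDs, as did Loxl1 and Lox, while Loxl4 lay far below the rest. In AngII the order of the leading pair turned, with 55.6 ± 9.48 for Lox and 51.1 ± 14 for Loxl1, a difference smaller than either SD. Loxl2 reached 32.1 ± 8.9, well above Loxl3 at 13 ± 2.58 and Loxl4 at 2.58 ± 0.492. Summed over the family, the level was 97.1 and 70.6 CPM per kilobase in the CTRL libraries, 129 and 180 at the end of the infusion, 90.9 and 65.4 at AngII+2W, and 30.2 and 67.2 at AngII+3W.

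The makeup of the family shifted towards Lox and Loxl2 at the end of the infusion. The share of Lox was 32.6 and 26.2% in CTRL and 37.8 and 34.7% in AngII, and that of Loxl2 was 12.5 and 14.9% in CTRL and 20.0 and 21.4% in AngII. Loxl1 held 42.1 and 45.5% in CTRL and 31.9 and 34.0% in AngII, and Loxl3 10.5 and 11.7% in CTRL and 8.62 and 8.25% in AngII. The groups did not overlap for these 4 members, whereas the shares of Loxl4 overlapped. With 2 libraries a group, the smallest p of an exact permutation test is 0.33, so these shares are given as a description.

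At AngII+2W the shares of Loxl1 (33.6 and 36.7%) and Loxl2 (16.8 and 19.4%) still lay outside those of CTRL, on the same side as in AngII. At AngII+3W the share of Loxl1 (35.1 and 40.9%) also lay below both CTRL libraries. That of Loxl3 (12.7 and 12.5%) lay above both, opposite to AngII. Lox (25.5 and 27.7%) overlapped with CTRL, and Loxl2 (22.7 and 14.9%) was level with the higher CTRL library in replicate 2. The shares and ratios of Loxl2 leave out the copy Gm21451. It held 23.7 and 21.2% of the count of Loxl2 in AngII+3W, against 6.61 and 9.76% in CTRL. Shares and ratios with its counts added were not computed. The share of Loxl4 was 4.01 and 3.92%, above the 1.32 to 2.19% of the 6 other libraries. This higher share stood in both AngII+3W libraries, while the level of Loxl4 itself, 2.96 and 6.45 CPM, overlapped with CTRL.

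**Figure D3:**
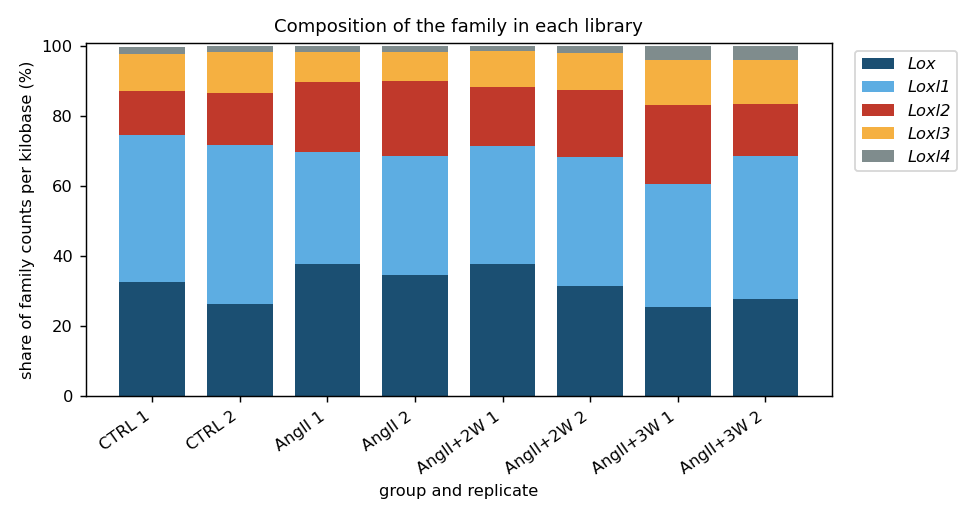
Share of each lysyl oxidase gene (%) in the family's counts per kilobase of median transcript length, 1 bar for each library. Loxl2 took 20.0 and 21.4% in AngII against 12.5 and 14.9% in CTRL, and Loxl4 about 4% in both AngII+3W libraries.

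Ratios taken within a library do not depend on its depth or scaling. The ratio of Loxl2 to Loxl1 counts was 1.01 log2 units above the CTRL mean in each of the AngII libraries, and 0.69 and 0.77 above it in AngII+2W, against -0.07 and 0.07 in CTRL. In AngII+3W it was 1.05 in replicate 1 and 0.23 in replicate 2. The ratio of Loxl2 to Loxl3 behaved alike in AngII, at 0.91 and 1.08, while that of Loxl2 to Lox (0.18 and 0.40) overlapped with CTRL (-0.28 and 0.28). Against Lox, both Loxl1 (-0.83 and -0.61) and Loxl3 (-0.74 and -0.68) were lower in AngII. Thus Lox and Loxl2 were higher relative to Loxl1 and Loxl3 in both AngII libraries. The share of all genes with such ratios to these members was not counted. The pairs closest in sequence at the copper site are Lox with Loxl1 and Loxl2 with Loxl4, and a link of sequence to level was not tested.

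Col1a1 and Col3a1, the main chains of the fibrillar collagens of the arterial wall, rose at the end of the infusion, and Eln, which codes for elastin, did not pass the test in any comparison. Col3a1 measured 1820 and 1250 CPM in CTRL and 8390 and 13400 CPM in AngII, so that the log2 fold change was 2.83 ± 0.46 (FDR = 0.0186). Col1a1 measured 1360 and 828 CPM in CTRL and 6640 and 11200 CPM in AngII, so that the log2 fold change was 3.03 ± 0.59 (FDR = 0.0322). In contrast, Eln measured 2220 and 2420 CPM in CTRL, 1120 and 2070 CPM in the AngII libraries, 1870 and 1370 CPM at AngII+2W, and 289 and 908 CPM at AngII+3W, with log2 fold changes over CTRL of -0.54 ± 0.51, -0.52 ± 0.51 and -1.95 ± 0.53 (FDR = 0.624, 0.784 and 0.182), the last being -1.36 without AngII+3W replicate 1. All 6 libraries of infused mice lay below both CTRL libraries. Taken by group, this order was common, in 22.2% of all genes at AngII+2W and 18.3% at AngII+3W. The share for the groups together was not counted.

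Ratios of the lysyl oxidases to these substrates have to be read against those of other genes, because the substrate itself moves every ratio. Relative to Eln, the mean log2 ratio in AngII exceeded that of CTRL by 2.08 for Loxl2, 1.79 for Lox, 1.28 for Loxl4, 1.09 for Loxl3 and 1.07 for Loxl1, against 0.60 for the median of all genes tested. Both AngII libraries lay above both CTRL libraries in all 5 members, and in 49.6% of all genes. Relative to Col1a1 the means were -1.54 for Loxl2, -1.83 for Lox, -2.35 for Loxl4, -2.54 for Loxl3 and -2.55 for Loxl1, and the median gene was at -3.03. Relative to Col3a1 they ran from -1.34 for Loxl2 to -2.35 for Loxl1, and the median gene was at -2.82. All members lay below CTRL in both, as did 98.1% and 97.9% of all genes, so that this order of the libraries is not particular to the family.

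At AngII+3W the ratios to Eln exceeded CTRL by means of 1.09 for Loxl1 (1.23 and 0.95 in replicates 1 and 2) and 1.16 for Lox (1.35 and 0.97). The means were 1.48 for Loxl3 (1.74 and 1.22), 1.73 for Loxl2 (2.28 and 1.18) and 2.34 for Loxl4 (2.61 and 2.07), so replicate 1 was higher throughout. The median of all genes exceeded CTRL by a mean of 2.20, above the mean of every member but Loxl4. Of all genes, 94.9% lay above CTRL in both libraries. Relative to Col1a1, the median gene was at 0.02. Lox (-0.81 and -1.24), Loxl1 (-0.92 and -1.26) and Loxl3 (-0.42 and -0.98) were below CTRL in both AngII+3W libraries, as were 3.73% of all genes. Loxl2 (0.13 and -1.03) and Loxl4 (0.45 and -0.13) overlapped with CTRL. Relative to Col3a1, the median gene was at 0.07. Lox (-1.0 and -0.93), Loxl1 (-1.12 and -0.95) and Loxl3 (-0.62 and -0.68) were below CTRL in both libraries, as were 5.54% of all genes. Loxl4 (0.25 and 0.17) was above CTRL in both, as were 4.26% of all genes, and Loxl2 (-0.07 and -0.73) overlapped.

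**Figure D4:**
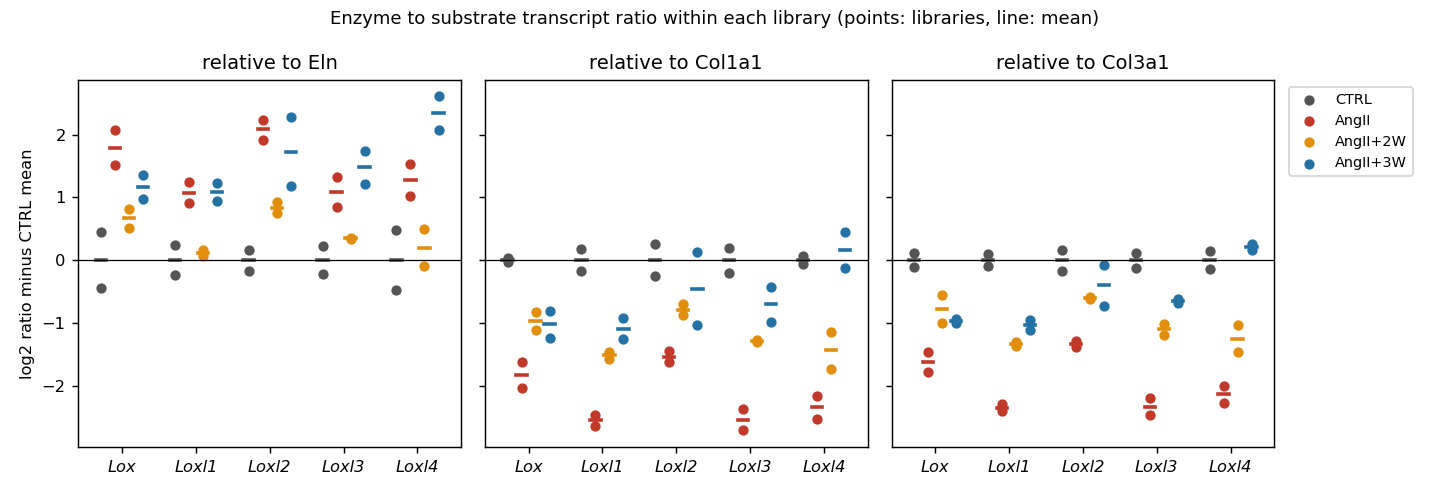
Log2 ratio of each lysyl oxidase to Eln, Col1a1 and Col3a1 within each library, minus the CTRL mean, with points for libraries and lines for group means. The AngII means lie from 1.07 to 2.08 relative to Eln, where the median of all genes was 0.60, and from -2.55 to -1.34 relative to Col1a1 and Col3a1, where it was -3.03 and -2.82.

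The other genes of the cross-linking pathway were counted in 6 lists, of which 67 genes were tested. In AngII, edgeR called 8 of them higher than CTRL and 0 lower, and limma-voom 7 and 0. DESeq2 called 18 higher and 2 lower, and the likelihood ratio test 18 higher and 3 lower. Over all 17182 genes tested, edgeR called 499 higher and 378 lower. In either direction edgeR called 877, limma-voom 840, DESeq2 1592 and the likelihood ratio test 1711. At an unadjusted p below 0.05 there were 39 of the 67, against 20.2% of all genes. The 10 substrate genes held 5 of the calls by edgeR (7 by DESeq2 and by the likelihood ratio test, 5 by limma-voom) and had a median log2 fold change of 1.63, against -0.01 over all genes tested. Besides Col1a1 and Col3a1, the called substrates were Col11a1, a chain that nucleates collagen fibrils (5.78 ± 0.57, FDR = 0.00571), and the type V chains Col5a2 (1.73 ± 0.36, FDR = 0.0379) and Col5a3 (1.52 ± 0.23, FDR = 0.0169).

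Of the 16 tested genes for maturation and matrix partners, edgeR called 2 higher, DESeq2 8, the likelihood ratio test 6 and limma-voom 1, and the median was 0.86. Those called by edgeR were Fbn2, a fibrillin of developing microfibrils, with 1.51 and 1.36 CPM in CTRL and 19.9 and 26.5 CPM in AngII (4.01 ± 0.37, FDR = 0.0053), and Pcolce, which enhances procollagen cleavage by Bmp1 (1.44 ± 0.33, FDR = 0.0497). Bmp1, the protease that activates Lox, measured 88.4 and 69.3 CPM in CTRL and 139 and 204 CPM in AngII and did not pass (1.12 ± 0.31, FDR = 0.0825). Postn, the matrix protein periostin that binds Bmp1, measured 0.77 ± 0.26 (FDR = 0.143). Neither Efemp2 (0.22 ± 0.29, FDR = 0.749) nor Fbln5 (-0.29 ± 0.44, FDR = 0.78), the fibulins that bring Lox and Loxl1 to elastin, passed the test.

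Genes of copper supply (4 tested) held 0 calls by edgeR and by limma-voom and 1 by DESeq2 and by the likelihood ratio test, with 2 at an unadjusted p below 0.05. Their median was 0.41, and Atp7a, the pump that loads copper into secreted enzymes, measured 0.34 ± 0.18 (FDR = 0.35). Of 19 genes for intracellular collagen modification 1 was called higher, P4ha3, a prolyl hydroxylase subunit, with 0.585 and 0.941 CPM in CTRL and 9.66 and 12 CPM in AngII (3.82 ± 0.51, FDR = 0.0119), and the median of the list was 0.43. The lysyl hydroxylases, which prepare the lysines that lysyl oxidases act on, did not pass, with 0.33 ± 0.14 for Plod1 (FDR = 0.255), 0.80 ± 0.34 for Plod2 (FDR = 0.238) and 0.29 ± 0.17 for Plod3 (FDR = 0.388). The 7 tested genes of other extracellular cross-linking enzymes and amine oxidases and the 11 known regulators held 0 calls by edgeR and by limma-voom, with medians of 0.45 and 0.19. By DESeq2 they held 2 calls (1 higher and 1 lower) and 1 call (lower), by the likelihood ratio test 3 calls each (1 lower and 2 lower), and 4 and 7 genes had an unadjusted p below 0.05.

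After the infusion, 0 genes of the 6 lists were called against CTRL in AngII+2W or AngII+3W by edgeR or limma-voom. At an unadjusted p below 0.05 there were 8 of the 67 genes in AngII+2W, against 10.7% of all genes, and 20 in AngII+3W, against 12.5%. DESeq2 called 2 genes in AngII+2W and 9 in AngII+3W, 8 of them lower, and the likelihood ratio test called 0 and 8, 7 of them lower. Over all genes tested, in either direction, DESeq2 called 373 and 587, and the likelihood ratio test 420 and 556. The median of the substrates was 0.26 in AngII+2W and -0.14 in AngII+3W, against 0 and 0.03 over all genes tested, and that of the maturation genes was 0.05 and -0.67. With AngII+3W replicate 1 left out the medians in AngII+3W were 0.23 for the substrates and -0.18 for the maturation genes. The latter includes Tll2 (0.31), which was tested in that fit but is not part of the -0.67, so the gene sets differ. Against AngII, edgeR called 2 of the 67 genes lower in AngII+2W, Col11a1 (-4.10 ± 0.50, FDR = 0.0436) and Fbn2 (-3.76 ± 0.37, FDR = 0.029), and 13 lower in AngII+3W. In AngII+2W limma-voom called 1 lower, DESeq2 19 and the likelihood ratio test 14, and in AngII+3W they called 13, 32 and 36. Over all genes tested, in either direction, edgeR called 28 in AngII+2W and 276 in AngII+3W, and limma-voom 15 and 287. DESeq2 called 685 and 948, and the likelihood ratio test 766 and 1068. The 13 genes comprised 5 substrates (Col3a1, Col5a2, Col5a3, Col11a1 and Col4a1), 4 maturation genes (Pcolce, Postn, Fbn1 and Fbn2) and 4 genes of intracellular modification (P4ha3, P3h1, Ppib and Serpinh1). Of these Col4a1, Fbn1, P3h1, Ppib and Serpinh1 were named after their values were seen. Both counts moved with single libraries, as did the number of all genes called. Without AngII+3W replicate 1 the 8 calls in AngII against CTRL became 18, and the 13 calls in AngII+3W against AngII became 1, Fbn2. Without AngII replicate 2 the calls of both comparisons were lost. In AngII against CTRL this went for all genes tested, so it is not particular to the lists.

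**Figure D5:**
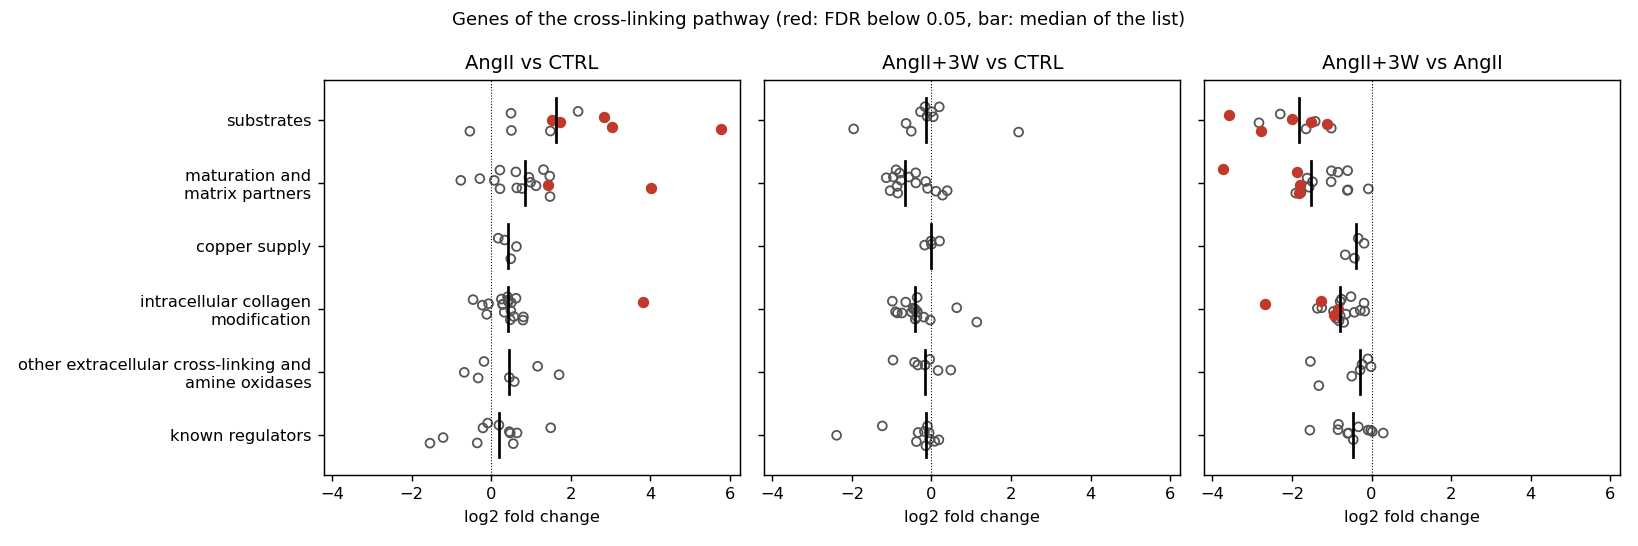
Log2 fold changes of the 67 tested genes in the 6 lists of the cross-linking pathway in 3 comparisons, 1 point for each gene, red where FDR was below 0.05, with bars for list medians. In AngII against CTRL 8 points are red, in AngII+3W against CTRL 0, and in AngII+3W against AngII 13, all below 0.

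Across the 8 libraries (Pearson's r of log2 CPM, given as a description, since the libraries share groups and tissue makeup), Loxl1 and Loxl3 followed each other most closely of all pairs of members (r = 0.988), and Loxl3 ranked 2 among all genes tested by its likeness to Loxl1. Lox followed Loxl3 (r = 0.957), Loxl1 (r = 0.935) and Loxl2 (r = 0.931). Loxl2 followed Loxl1 less (r = 0.828), and Loxl4 stood apart, with r from 0.587 to 0.661. The genes most like Loxl2 were Sparc, a collagen-binding matrix protein, Ankfy1, and the matrix protease gene Adamts4 (r = 0.993, 0.993 and 0.992). Of these Sparc (1.35, FDR = 0.0391) and Adamts4 (2.35, FDR = 0.0124) rose in AngII over CTRL, and Ankfy1 measured 0.29 (FDR = 0.227). They were picked by likeness to Loxl2 in the same libraries, so these values are not independent of the rise of Loxl2. Lox was most like Col6a2, which codes for a chain of type VI collagen, Tmem45a and Fstl1 (r = 0.986, 0.985 and 0.98). Loxl1 was most like Txndc5, an endoplasmic reticulum disulfide isomerase, Loxl3 and the microfibril gene Mfap5 (r = 0.99, 0.988 and 0.984). Loxl3 was most like Mfap5, B3gnt9 and Tro (r = 0.99, 0.989 and 0.988), and Loxl4 was most like Chfr, Elmo1 and Dennd2a (r = 0.971, 0.951 and 0.951).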

How the data were processed

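Values in the deposited table are expected counts by gene, in whole numbers and not normalized. Per the labels and the paper, the authors depleted ribosomal RNA, estimated transcript abundance with Salmon on Ensembl transcripts of GRCm38 within ARMOR, and used tximeta for gene sums. Members and gene lists were chosen with earlier results of these data known. Libraries were grouped by their labels. The test was that of edgeR 4.0.16 under R 4.3.3 (filterByExpr, TMM, quasi-likelihood F test in its older form, 8 libraries, 1 coefficient for each group, two-sided p-values adjusted by Benjamini-Hochberg over 17182 genes), and the script was tested on simulated data. Standard errors are the absolute log2 fold change divided by the square root of F. Within-library ratios used a prior count of 0.5. Positions and lengths came from GENCODE M21 on GRCm38, which holds 35437 (98.7%) of the identifiers, and copies were searched with BLAST 2.17.0. Counting errors cover counting only, and 1 count equals 0.0467 to 0.054 CPM. Named genes were the members, 11 pathway genes, list genes called against CTRL, and the 3 genes most like each member. Alternatives were other normalizations, filters and tests, including DESeq2 1.42.0 and limma 3.58.1, other transcript lengths, a replicate block and leaving out each library. Tll2, Atp7b and Aoc1 had too few counts for the filter over all 8 libraries and were not tested there.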

Additional observations from a re-analysis of the deposited data

Results flagged for a closer look

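The effect of the infusion on Loxl2 differed between time points, by the test of AngII+3W against AngII (log2 difference -1.93, FDR = 0.0223, edgeR's quasi-likelihood test). With the counts of Gm21451 added to those of Loxl2, this difference was -1.735. The same test separated the time points for Col3a1 (-2.78), Col5a2 (-2.01), Col5a3 (-1.51), Col11a1 (-3.59), Col4a1 (-1.13), Pcolce (-1.83), Postn (-1.81), Fbn1 (-1.88), Fbn2 (-3.73), P4ha3 (-2.68), P3h1 (-0.93), Ppib (-0.85) and Serpinh1 (-1.28), with FDR from 0.0145 to 0.0475. In AngII+2W against AngII it separated them for Col11a1 (-4.10) and Fbn2 (-3.76). All of these values are lower after the infusion than at its end. Without AngII+3W replicate 1, Loxl2 (-1.68, FDR = 0.061) and 12 of the 13 other genes in AngII+3W no longer passed, and Fbn2 did (-3.25, FDR = 0.0255), while both calls in AngII+2W were kept.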

How the results depend on the processing

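Loxl2 was called in AngII against CTRL in all 12 alternatives that kept every library of the groups compared (log2 fold change 1.48 to 1.55). In AngII+3W against AngII it was called in 11 of 12, the exception being the fit of only these groups. The number of members called in AngII against CTRL became 2, Lox and Loxl2, in a fit of only these groups, which called 1149 of all genes. In AngII+2W against AngII it became 1 with no filter beyond 1 count, with DESeq2, with the likelihood ratio test and with only these groups. Those fits called 242, 685, 766 and 884 of all genes, in that order. In AngII+3W against AngII it became 2 with no filter, 4 with DESeq2, 3 with the likelihood ratio test and 0 with only these groups. Those fits called 522, 948, 1068 and 0 of all genes, in that order. With 1 library left out, the remaining sample of its group was assumed to vary like the other groups, and the number of members called ranged from 0 to 1 in AngII against CTRL, AngII+3W against CTRL and AngII+2W against AngII, and from 0 to 4 in AngII+3W against AngII. The list genes called higher in AngII (8) became 13 with no filter, 18 with DESeq2, 18 with the likelihood ratio test, 16 with only these groups and 5 with the replicate block, and ranged from 0 to 18 with 1 library left out. Those called lower in AngII+3W against AngII (13) became 5 with library totals alone, 22 with no filter, 32 with DESeq2, 36 with the likelihood ratio test, 0 with only these groups and 6 with the replicate block, and ranged from 0 to 36. Over all genes tested, AngII against CTRL held 877 calls, and 1132, 1592, 1711, 1149 and 870 in the alternatives named, in that order. AngII+3W against AngII held 276, and 179, 522, 948, 1068, 0 and 221. The causes were not tested.

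With 1 library left out, 8 of the 30 log2 values of the members turned sign in at least 1 fit, none of them a called value. In AngII+2W against CTRL they ranged from -0.295 to 0.578 for Lox, from -0.448 to 0.039 for Loxl3 and from -0.757 to 0.087 for Loxl4. Against CTRL in AngII+3W, Loxl4 ranged from -0.51 to 0.691, and against AngII from -1.142 to 0.038. In AngII+3W against AngII+2W the ranges were -1.409 to 0.011 for Loxl1, -1.148 to 0.04 for Loxl3 and -0.105 to 1.065 for Loxl4. Replicate numbers do not come from the same mice, and the correlation of replicate differences between groups ran from -0.045 to 0.248. With the replicate block, Loxl2 measured 1.48 (FDR = 0.0287) and -1.93 (FDR = 0.0362), and no member's call changed. Shares in AngII relative to CTRL, and ratios, kept their direction under other transcript lengths, without division by length and with a prior count of 2. Counting error was at most 13.5% for Loxl4 and 6.19% for the other members, whereas replicates differed up to 2.59-fold.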
